A study of Mus musculus with 2 samples.

Results

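The 8 genes described here encode the products by which enteroendocrine cells are recognised: the peptide hormones Gcg, Cck, Sst and Gip, the granins Chga and Chgb, the serotonin-synthesis enzyme Tph1 and the prohormone-processing enzyme Cpe. They were taken by symbol from a table of 17134 genes, and all 8 were found there. The table holds RNA sequencing of tuft cells, rare chemosensory cells of the gut epithelium, isolated by flow sorting from the small intestine of untreated (naive) mice by the surface proteins EpCAM, of epithelium, and Siglec-F, of intestinal tuft cells. WT mice were Spib+ with Villin-cre, and Spib_KO mice were Spib fl/fl with Villin-cre, a transgene that drives Cre recombinase in gut epithelium. Both genotypes therefore carry Villin-cre. Spib encodes Spi-B, an ETS family transcription factor. The labels give 1 library per genotype and neither the age nor the number of the mice, so no difference below has a replicate check and each value describes these 2 libraries.

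Enteroendocrine cells are the hormone-secreting cells of the gut epithelium, and each of them makes a small set of peptides stored in dense-core granules. A prohormone is cut by the convertases Pcsk1 and Pcsk2 at pairs of basic residues, carboxypeptidase E (Cpe) trims the basic residues left behind, and granins help to pack the granule. Enterochromaffin cells, a class of enteroendocrine cells, store serotonin, whose synthesis starts with tryptophan hydroxylase 1 (Tph1). Tuft cells are a separate lineage and are not known for peptide hormones of this kind.

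The comparison asks which of these transcripts differed in sorted tuft cells when Spib was deleted in the epithelium. Gcg and Tph1 had reads in WT and none in Spib_KO, Cck had 1 read left, and Sst and Chga were several-fold lower. Chgb was about 2-fold lower, and its counting interval did not clear the 2-fold rule. Gip and Cpe went the other way, Gip 3.65-fold and Cpe 20.9-fold higher. Of the 8 genes 5 were thus called lower and 2 higher, where 2.18% of 10707 measured genes were called lower and 2.33% higher. Measured genes reached, in WT or Spib_KO, 30 reads and a normalised read count (CPM, reads scaled to a common library size) of 5. Called genes were those whose whole 95% counting interval lay at or beyond a 2-fold difference. All 8 genes were measured, but Gcg, Cck, Sst, Chga and Tph1 passed that minimum only in WT and Gip only in Spib_KO, so for these genes a difference was favoured by the filter and the count is a description. Chgb and Cpe passed it in both libraries. The median log2 ratio of the 8 genes was -2.88, and that of all measured genes was 0.01. Setting Gcg and Tph1 to their floor could not move the former, since both stay below it. In bulk RNA, fewer cells of a type and less RNA per cell cannot be told apart.

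The DNA just upstream of the start sites is shown for 4 genes whose reads were nearly lost or went up, since the deleted factor belongs to a family that binds a GGAA core. The sequences are the 250 bases before the start site of a RefSeq transcript on GRCm38.p6, which need not be the outer end of the gene as given below (for Gip and Sst it lies inside that span), read 5′ to 3′ on the strand of the gene, with every GGAA (or TTCC, its other strand) in capitals. Gcg lies at chr2:62483654-62483903 on the minus strand, Cck at chr9:121495695-121495944 on the minus strand, Gip at chr11:96024295-96024544 on the plus strand and Tph1, in the first of its 2 windows, at chr7:46672538-46672787 on the minus strand.
Gcg: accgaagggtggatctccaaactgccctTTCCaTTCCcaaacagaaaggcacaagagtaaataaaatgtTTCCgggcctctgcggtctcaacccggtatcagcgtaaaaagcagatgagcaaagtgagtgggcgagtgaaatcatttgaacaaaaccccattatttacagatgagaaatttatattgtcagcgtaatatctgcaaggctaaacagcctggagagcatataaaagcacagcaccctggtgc
Cck: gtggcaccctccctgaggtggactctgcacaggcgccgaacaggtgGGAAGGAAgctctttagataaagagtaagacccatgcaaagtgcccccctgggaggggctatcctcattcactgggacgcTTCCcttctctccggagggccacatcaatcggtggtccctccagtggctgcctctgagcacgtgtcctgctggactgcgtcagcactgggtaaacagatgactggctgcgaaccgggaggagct
Gip: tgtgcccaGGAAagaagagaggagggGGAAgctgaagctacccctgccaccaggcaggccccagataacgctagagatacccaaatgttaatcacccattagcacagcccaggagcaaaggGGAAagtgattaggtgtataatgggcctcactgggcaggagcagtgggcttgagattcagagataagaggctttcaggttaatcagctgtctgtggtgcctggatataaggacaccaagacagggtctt
Tph1: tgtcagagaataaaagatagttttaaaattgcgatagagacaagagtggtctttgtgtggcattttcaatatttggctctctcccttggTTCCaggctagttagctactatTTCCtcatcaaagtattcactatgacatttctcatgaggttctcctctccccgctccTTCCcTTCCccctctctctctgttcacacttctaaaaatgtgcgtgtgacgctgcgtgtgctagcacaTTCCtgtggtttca
There were 3 matches each for Gcg, Cck and Gip and 5 for Tph1 in the window shown. The other Tph1 window, at chr7:46667378-46667627, held 1. Of the 4 genes shown, those that were lower and the one that was higher all held the core. The core is common, since 93.4% of 32851 promoter windows of this length held it on either strand, with a median of 3.0 matches. Windows were found for 7 of the 8 genes, all but Cpe, and 6 of the 7 held GGAA.

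The seventh, Sst, held instead the palindrome TGACGTCA, the cAMP response element for which the somatostatin promoter is known, and so did Chgb. That motif was found in 1.55% of all windows, and in these genes no GGAA overlapped it. It lies 48 to 41 bases before the transcript start used for Sst and 72 to 65 bases before that used for Chgb. In GENCODE M21, 114 bases of the Sst window and all 250 of the Chgb window are also in exons of longer transcripts of these genes. The 30 bases around it are chr16:23890874-23890903 on the minus strand for Sst and chr2:132781559-132781588 on the plus strand for Chgb, with the motif in capitals.
Sst: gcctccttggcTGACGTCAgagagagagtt
Chgb: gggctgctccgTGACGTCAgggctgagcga
Sst and Chgb, which share it, had log2 ratios of -3.41 and -1.04. A match of letters is a description and does not show binding.

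Among the peptide hormones, Gcg (gene 14526, chromosome 2, 62474530 to 62483653, GRCm38.p6) encodes proglucagon, from which L cells make GLP-1 and GLP-2. In WT 316 reads fell on it, giving 17.6 CPM with an exact 95% Poisson interval of 15.7 to 19.6 (intervals in brackets after a CPM are of this kind). In Spib_KO no read did, a count of 0 that allows up to 3 reads or 0.175 CPM. Against that floor of 3 reads Gcg was at least 100.4-fold lower. The exact interval of the pair of counts, which also holds the counting error of WT, ended at -6.34 on the log2 scale, or 81.2-fold lower.

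Cck (gene 12424, chromosome 9, 121489824 to 121495694) encodes cholecystokinin, the fat- and protein-induced hormone of I cells that acts on the gallbladder and pancreas. Its WT level was 21.1 CPM (19.0 to 23.3) from 379 reads, against 0.0583 CPM (0.00148 to 0.325) from 1 read in Spib_KO. The log2 ratio was -7.93 with a counting interval of -13.8 to -6.01. The gene overlaps the long non-coding RNA gene Gm38661, which was not analysed here, and the library chemistry does not keep strand.

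Sst (gene 20604, chromosome 16, 23889573 to 23891342) encodes somatostatin, the D cell peptide that inhibits the release of other hormones. Its 272 reads in WT were 15.1 CPM (13.4 to 17.0), and its 24 reads in Spib_KO were 1.40 CPM (0.896 to 2.08). Sst was 10.6-fold lower, a log2 ratio of -3.41 (-4.10 to -2.83). Unlike Gcg and Cck, Sst was still read in Spib_KO well above the floor of 3 reads.

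Gip (gene 14607, chromosome 11, 96024532 to 96030831) encodes the incretin of K cells, glucose-dependent insulinotropic polypeptide. Its level of 2.28 CPM (1.64 to 3.09) in WT rests on 41 reads and that of 8.39 CPM (7.08 to 9.88) in Spib_KO on 144, which gives a ratio of 1.87 on the log2 scale (1.37 to 2.42). Gip was the lowest of the 4 hormone genes in WT and the highest in Spib_KO. Of the reads on the 4 hormone genes it took 4.07% in WT (41 of 1008, exact binomial interval 2.93% to 5.48%) and 85.2% in Spib_KO (144 of 169, 78.9% to 90.2%). The summed level of the 4 was 56.0 CPM in WT (52.6 to 59.6) and 9.85 CPM in Spib_KO (8.42 to 11.5), 5.67-fold lower. The reads on these 4 genes thus differed in amount and in composition, from mostly Cck, Gcg and Sst to mostly Gip. This does not extend to all hormone genes, since Sct, described below, had 7274 and 9144 reads.

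**Figure D1:**
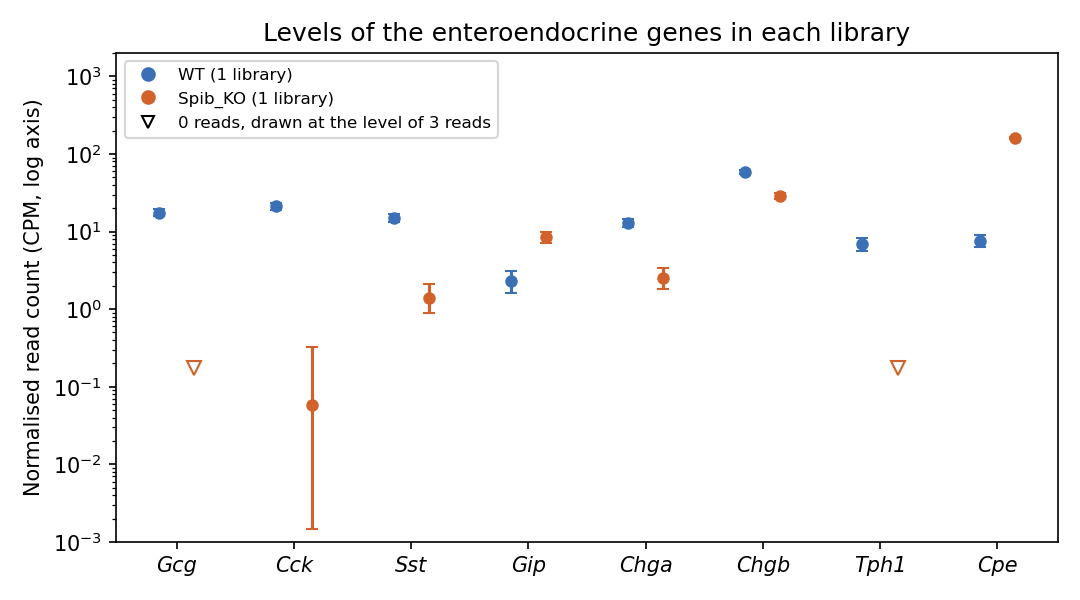
Normalised read count (CPM, log axis) of each of the 8 genes in the WT and the Spib_KO library, 1 library each. Points are levels with exact 95% Poisson intervals of the read count, and open triangles mark genes with 0 reads, drawn at the level of 3 reads. Gip and Cpe are higher in Spib_KO, at 8.39 and 160 CPM, and the other 6 genes are lower.

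The granins are acidic proteins of the dense-core granule. Chga (gene 12652, chromosome 12, 102554941 to 102565027) encodes chromogranin A, the general marker of enteroendocrine cells. WT held 232 of its reads (12.9 CPM, 11.3 to 14.7) and Spib_KO 43 (2.51 CPM, 1.81 to 3.38). Chga was 5.10-fold lower, or -2.35 on the log2 scale (-2.87 to -1.89). Chgb (gene 12653, chromosome 2, 132781642 to 132795079) encodes chromogranin B. WT held 1064 of its reads (59.1 CPM, 55.6 to 62.8) and Spib_KO 493 (28.7 CPM, 26.3 to 31.4). Its log2 ratio was -1.04 (-1.20 to -0.89), so the interval spans the 2-fold line and Chgb was not called. The levels of Chgb nevertheless differed by more than counting error.

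The granin genes did not move by the same factor. Chga took 17.9% of the granin reads in WT (15.9% to 20.1%) and 8.02% in Spib_KO (5.87% to 10.7%), intervals that do not overlap. Chgb kept 48.6% of its WT level, Chga 19.4% and Sst 9.25%. With 493 reads Chgb was, after Cpe, the most read of the 8 genes in Spib_KO.

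Tph1 (gene 21990, chromosome 7, 46644641 to 46672537) was counted 123 times in WT, a level of 6.83 CPM (5.68 to 8.16), and not at all in Spib_KO. Against the floor it was at least 39.1-fold lower, and its interval ended at -4.97, or 31.3-fold lower. Mast cells also express Tph1 in mice. In the marker list of mast cells 7 genes had values. Mcpt1, Cpa3 and Gata2 had 59, 10 and 2 WT reads and 0 each in Spib_KO. Hdc had 14 and 24 reads, Ms4a2 0 and 2, and Tpsb2 0 and 1. Kit, a receptor gene on the same list, rose from 85.0 to 327 CPM. The part of mast cell RNA in the loss of Tph1 was not tested.

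Cpe (gene 12876, chromosome 8, 64592542 to 64693109) moved most among the genes that went up. Its 137 WT reads were 7.61 CPM (6.39 to 9.00), and its 2740 Spib_KO reads were 160 CPM (154 to 166), a log2 ratio of 4.39 (4.14 to 4.65). Of the 10707 measured genes 16 had a higher fitted ratio. Cpe made up 5.34% of the reads on the 8 genes in WT and 79.5% in Spib_KO. For that reason the sum over all 8 was higher in Spib_KO, at 201 against 142 CPM, while without Cpe it fell from 135 to 41.1 CPM. Cpe is also known from neurons, glia and stromal cells. The 8 stromal markers summed to 5.34 CPM in WT and 3.44 CPM in Spib_KO, and the 8 markers of enteric neurons and glia with values to 6.61 and 0.991 CPM, with 4 of them at 0 reads in Spib_KO and the highest, Prph, at 72 and 12 reads. A sum of markers sets no bound on the Cpe reads that such cells give. The part of these cells in the level of Cpe in either library was not tested.

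**Figure D2:**
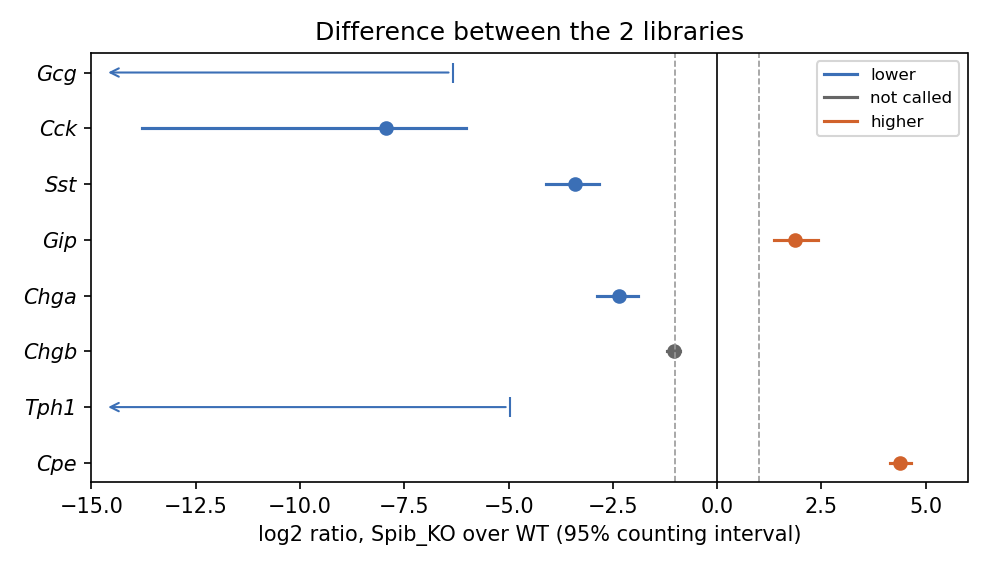
The log2 ratio of Spib_KO over WT for each of the 8 genes, with the exact 95% counting interval as a line. Dashed lines mark a 2-fold difference, and arrows start at the interval bound nearest 0 for Gcg and Tph1, whose intervals have no lower end because Spib_KO had 0 reads. The interval of Chgb, -1.20 to -0.89, crosses the dashed line.

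Levels of different genes were compared with the authors' deposited TPM, a level corrected for transcript length and library size. In WT the order was Cck (56.5 TPM), Sst (48.3), Chgb (34.6), Gcg (25.5), Chga (9.63), Gip (6.71), Tph1 (5.06) and Cpe (4.92). The exact interval of the ratio of neighbours in this order included 1 for Cck over Sst (0.998 to 1.37), Gip over Tph1 (0.908 to 1.90) and Tph1 over Cpe (0.80 to 1.32), so for these a difference beyond counting error was not detectable. It did not include 1 for the others, the closest being Chga over Gip (1.03 to 2.05). In Spib_KO the order was Cpe (102 TPM), Gip (23.5), Chgb (16.6), Sst (4.42), Chga (1.84) and Cck (0.10), with Gcg and Tph1 listed at 0. There no ratio of neighbours with reads had an interval that included 1, the closest being Gip over Chgb (1.17 to 1.71). Cpe moved from rank 8705 to rank 1370 of 17134 genes by TPM, and Cck from rank 2341 to 13966.

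**Figure D3:**
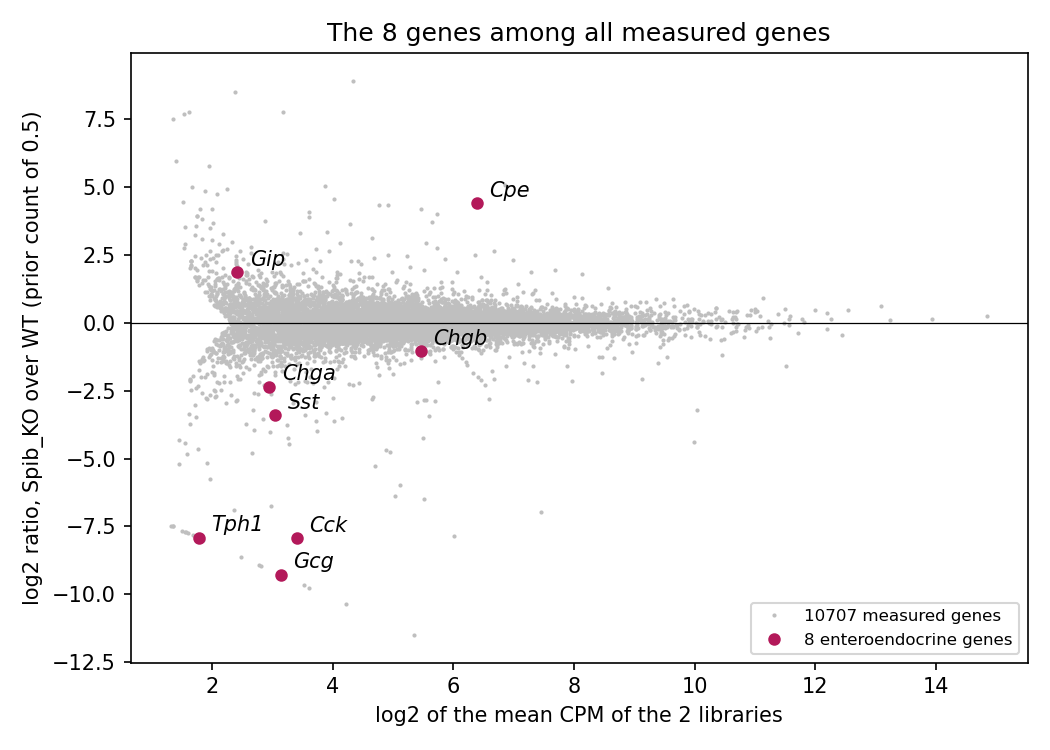
Each of the 10707 measured genes by the log2 of its mean CPM over the 2 libraries and its log2 ratio of Spib_KO over WT, with the 8 genes labelled. The ratios of Gcg and Tph1, with 0 reads in Spib_KO, depend on the prior count of 0.5. Most genes lie near 0, with quartiles of -0.26 and 0.28, and Chgb is the labelled gene closest to them.

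Secretin and the guanylins were the most abundant of the further hormone genes. Ghrl came next in WT at 18.8 TPM, above Chga, Gip, Tph1 and Cpe, but its 4.83 CPM missed the minimum. Of 16 further hormone and peptide genes 12 had values here and 3 were measured, none of them called. Sct, which encodes secretin, had 1729 TPM in WT and 2133 TPM in Spib_KO, a log2 ratio of counts of 0.40, and was far more abundant than any of the 8 genes. The guanylin genes Guca2b and Guca2a, which enterocytes and goblet cells also express, had log2 ratios of -0.44 and -0.19. Without the filter on low counts, Ghrl, Iapp, Gast and Ucn3 of this list were lower and 0 were higher, where 4.18% of 17113 genes with a read were lower and 3.48% higher. The 87 WT reads of Ghrl, the ghrelin gene, and the 32 of Iapp, the amylin gene, compare with 0 each in Spib_KO, so that against the floor they were at least 27.7-fold and 10.2-fold lower, with intervals that ended at -4.46 and -2.96 on the log2 scale. None of 7 further granin and granule genes reached the minimum. Of these Scg2 (secretogranin II) had 47 and 2 reads, giving -4.19 on the log2 scale (-7.57 to -2.55), Resp18 had 34 and 0 reads, and Nucb2, the nucleobindin gene, had 32 and 72.

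Of 16 further processing genes with values 10 were measured and 0 were called, with a median log2 ratio of -0.23. For a list of this size, 0 calls is near the background. Pcsk1, Pcsk2 and Pam were below the minimum and are not among the measured genes. Pcsk1, the convertase of proglucagon and most gut prohormones, had 89 WT reads and 48 Spib_KO reads, a log2 ratio of -0.82 (-1.36 to -0.30), and Pcsk2 had 1 and 4. Pam, which amidates peptides such as cholecystokinin, had 37 and 51 reads. The most abundant of the list, the aminopeptidase gene Rnpep and the carboxypeptidase gene Cpm, had ratios of -0.23 each. Without the filter on low counts Tpst1 (28 and 5 reads) of this list was lower and 0 were higher. Of 17113 genes with a read, 4.18% were then lower and 3.48% higher.

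Other genes of amine handling, from the cofactor and precursor supply of Tph1 to breakdown, were not called. Of 16 such genes with values 13 were measured, with 0 calls and a median of 0.04. With 2.18% and 2.33% of all measured genes called, 0 calls in a list of this size is near the background. Ddc, the decarboxylase that completes serotonin synthesis, was at 192 CPM in WT against 189 CPM in Spib_KO. The vesicular monoamine transporter genes Slc18a1 and Slc18a2 had log2 ratios of 0.53 (0.19 to 0.87) and 0.96 (0.57 to 1.37), the serotonin transporter gene Slc6a4 had 0.10, and Maoa and Aldh2, of monoamine breakdown, had -0.39 and 0.04. Of the measured genes of this pathway only Tph1 had 0 reads in a library. Without the filter on low counts Th (10 and 0 reads) of this list was lower and 0 were higher. The shares of all 17113 genes with a read were 4.18% lower and 3.48% higher.

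Several transcription factors of the enteroendocrine lineage had few reads in both libraries. Neurog3, required for the lineage, had 4 WT and 7 Spib_KO reads, Neurod1 had 16 and 9, and Nkx2-2 1 and 1. Isl1 had 15 and 0 reads, Pax4 had 0 and 10, and Foxa2 had 3 and 28. Without the filter on low counts Isl1 of this list was lower, and Pax4 and Foxa2 were higher. Of 17113 genes with a read, 4.18% were lower and 3.48% higher without the filter. Of 24 listed factors with values 6 were measured, at 13.0 CPM or more in each library, and 0 called. The most abundant was St18, at 109 and 85.8 CPM, followed by Prox1, at 50.8 and 23.1 CPM, a log2 ratio of -1.14 (-1.31 to -0.96). Of 29 genes of granules and regulated exocytosis 15 were measured and 0 called, with a median of 0.35. Vamp8, a SNARE protein gene, had a log2 ratio of 0.09 and Rab27a, a granule GTPase gene, 0.86. Scgn, the secretagogin gene, had 30 WT reads and 0 in Spib_KO, below the minimum. Without the filter Scgn, Syt7 and Sytl5 of this list were lower and 0 were higher, beside those shares of all genes. Of 21 genes for nutrient and stimulus receptors 6 were measured and 0 called. With 2.18% and 2.33% of all measured genes called, 0 calls in each of these lists is near the background. The most abundant receptor genes, the guanylate cyclase receptor gene Gucy2c and the fatty acid receptor gene Ffar3, had ratios of -0.12 and 0.33. Without the filter Casr (61 and 11 reads), Trpa1 (25 and 0) and Cacna1h (33 and 0) of this list were lower and 0 were higher. The same shares of all genes apply here. None of 10 hormone receptor genes was measured, and the highest of them, Htr4, had 49 and 35 reads. Without the filter Sstr3 (10 and 0 reads) and Htr2b (29 and 3) of this list were lower and 0 were higher, beside the same shares. In a list of other neuropeptides and granule-related genes, Nbea, a scaffold protein gene of vesicle traffic, was lower in Spib_KO, at 7.87 CPM against 25.6 in WT (log2 ratio -1.70, -1.99 to -1.42). It was the only call among 2 measured. Without the filter Bdnf (15 and 0 reads) of this list was also lower and 0 were higher.

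**Figure D4:**
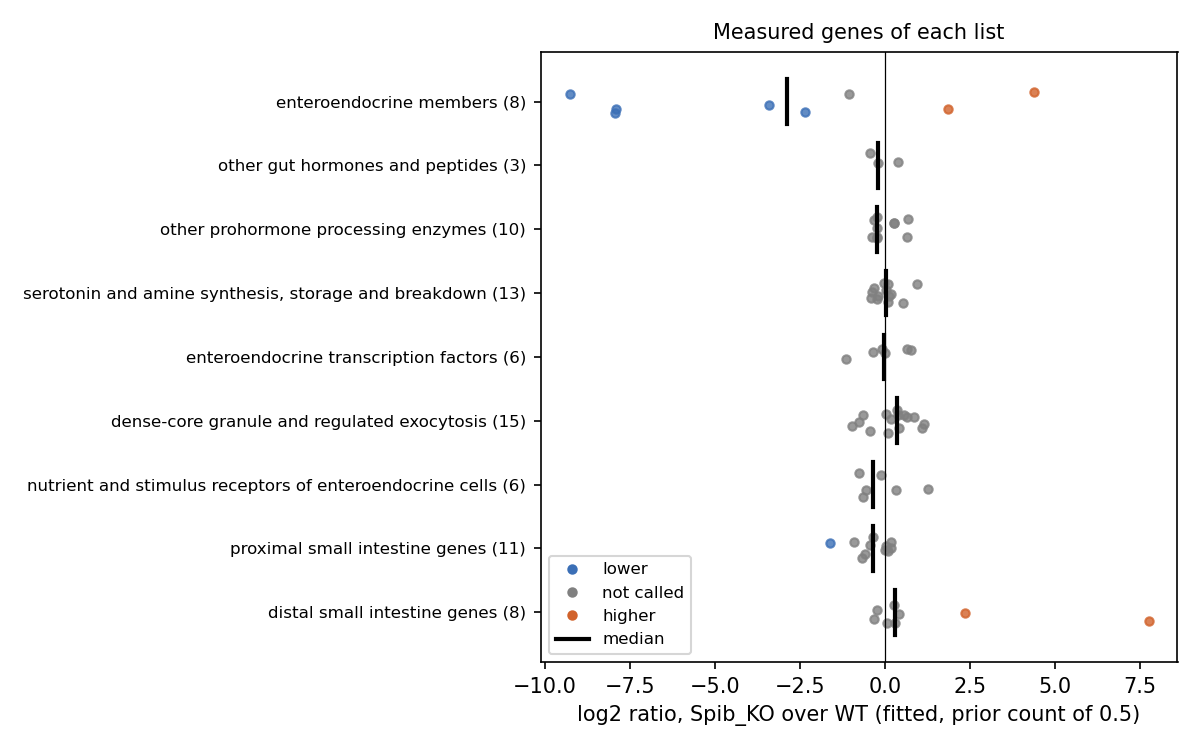
The log2 ratio of Spib_KO over WT of each measured gene in the lists with more than 2 measured genes, with the number measured in brackets, the median as a black bar and called genes in colour. Points of genes with 0 reads in 1 library (Gcg, Tph1 and Fgf15) depend on the prior count of 0.5. The 8 genes spread from the far left to 4.39. The 5 lists of processing, amine, transcription factor, exocytosis and receptor genes hold no called gene. That is near the background for lists of their size, since 2.18% of all measured genes were called lower and 2.33% higher.

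By pattern over the 2 libraries (distance in log2(CPM + 0.5)), the genes nearest to Gcg outside the lists were Vmn2r26, a vomeronasal receptor gene, H2-Aa, an MHC class II gene, and Pzp, at distances of 0.32, 0.34 and 0.34. Nearest to Cck were the alpha-defensin genes Defa33 and Defa37, at 0.20 and 0.26, and H2-Aa, at 0.44. Nearest to Cpe were Pla2g4c, a phospholipase gene, Tslp, a cytokine gene, and Btbd16, at 0.52, 0.73 and 0.78. These lay farther from Cpe than the nearest genes lay from Gcg or Cck. With 2 libraries such likeness rests on 2 values per gene.

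The libraries held 17925421 (WT) and 17228665 (Spib_KO) reads assigned to genes, and Spib itself fell from 6266 to 48 reads. The sort genes Epcam and Siglecf had log2 ratios of -0.06 and 0.14. All 16 tuft markers were measured, at a summed level of 20880 CPM in WT and 20560 CPM in Spib_KO, against 142 and 201 CPM for the 8 genes. Of these markers 1 was called, Plcb2, which was lower (682 and 321 CPM). Markers of other cells moved beside the hormone genes. Over all measured genes 2.18% were called lower and 2.33% higher, the shares to set beside each count below. Of 11 Paneth markers 10 were lower, such as Defa5 (57.0 to 2.21 CPM). The list sum fell from 2555 to 982 CPM, and none of the listed genes was at 0. Ang4 of this list had a log2 ratio of 0.75 and was not called. Outside the list, the alpha-defensin genes Defa33 and Defa37 had 414 and 440 WT reads and 0 each in Spib_KO. Of 11 measured goblet markers 4 were lower, such as Fcgbp (582 to 234 CPM), with sums of 2289 and 1415 CPM and none at 0. Clca1 of this list had a log2 ratio of 0.68 and was not called. Of 4 measured lymphocyte markers 4 were lower, such as Gzma (17.6 to 1.28 CPM). The sums over 10 genes were 54.6 and 6.41 CPM, with 1 gene at 0 in Spib_KO. Cd2 of this list, below the minimum, had 2 and 11 reads. Of 3 measured myeloid markers Lyz2 was lower (6.11 and 0.524 CPM), and Adgre1, with a log2 ratio of 0.83, was not called. Enterocyte markers had 0 calls among 14. Markers of intestinal position also differed: of 8 measured distal genes Fabp6, a bile acid-binding protein gene, rose from 19.1 to 97.8 CPM and Fgf15 had 0 and 105 reads, at least 36.7-fold higher against the floor (interval from 4.87 on the log2 scale), while of 11 measured proximal genes Adh1 fell from 4429 to 1458 CPM and Gata4, with a ratio of 0.17, was not called. The part of these cells and positions in the levels of the 8 genes was not tested.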

How the data were processed

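Sorted tuft cells gave 2 libraries, WT and Spib_KO. Per the labels' protocols, TRIzol was used to extract RNA, a SMART-seq2 method to amplify cDNA and a transposase to make the libraries, with no mention of molecular identifiers. Per the submitters' processing notes, HISAT and Bowtie2 2.2.3 were used with mm10. Neither the counting program nor the annotation is named in these sources. For each gene the authors deposited, per the file headers, read counts, TPM and FPKM. The deposited counts are estimated counts (19.0% of genes in WT and 18.6% in Spib_KO are not whole) and were rounded; those of all 8 genes are whole. The deposited TPM values were used to compare genes, and TPM and FPKM as alternatives.

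Library sizes were scaled with TMM factors (edgeR 4.0.16, R 4.3.3) to effective totals of 17996059 and 17161039. The log2 ratio used a prior count of 0.5, with an exact (Clopper-Pearson) 95% interval for the Spib_KO share of both libraries' counts. All intervals and floors (3 reads) cover counting error only, since amplified reads are not independent molecules. With 1 library per genotype there is no test and no p-value. Alternatives were DESeq2 1.42.0 size factors, other scalings, filters and size rules, the deposited TPM and FPKM, and thinning. Scripts ran in Python 3.11.15 with scipy 1.17.1, pandas 2.3.3, numpy 2.4.6 and matplotlib 3.10.9.

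The 8 genes and the lists were chosen with earlier results of these data known. The text names, beside the 8 genes, Spib, Siglecf and Epcam, up to 4 called genes of each list (or the 2 most abundant where none was called) and the 3 measured genes nearest in pattern to Gcg, Cck and Cpe, leaving out predicted clones. Guca2a, Ghrl, Iapp, Gast, Ucn3, Resp18, Pcsk1, Pcsk2, Pam, Ddc, Slc18a1, Slc18a2, Slc6a4, Scgn, Syt7, Sytl5, Casr, Trpa1, Cacna1h, Prph, Neurog3, Neurod1, Nkx2-2, Isl1, Pax4, Mcpt1, Cpa3 and Gata4 were named after their values were seen. So were Foxa2, Gata2, Hdc, Ms4a2, Tpsb2, Ang4, Clca1, Cd2, Adgre1, Sstr3, Htr2b, Th, Tpst1 and Bdnf. Positions and promoter windows are from RefSeq on GRCm38.p6, the assembly of mm10.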

Additional observations from a re-analysis of the deposited data

How the results depend on the processing

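The calls of 5 of the 8 genes lower and 2 higher held under other scalings, a prior count of 5 and thinning of the deeper library. The scalings were totals with or without the 20 most abundant genes, DESeq2 size factors and the upper quartile. No gene of the 8 changed sign under any of the 12 alternatives run. The filters and size rules leave each ratio as it was, so under them no sign could change. Over the alternatives on counts the log2 ratio ran from 4.34 to 4.40 for Cpe, 1.76 to 1.92 for Gip, -3.42 to -3.19 for Sst, -2.36 to -2.24 for Chga and -1.05 to -1.03 for Chgb. It moved further for the genes with 0 or 1 read in Spib_KO, whose ratio depends on the prior count: -9.28 to -5.97 for Gcg, -7.94 to -5.96 for Cck and -7.92 to -4.65 for Tph1, the smaller sizes with a prior count of 5. With a CPM minimum of 20, Gcg, Sst, Gip, Chga and Tph1 no longer counted as measured, which left 1 of the 8 lower (Cck) and 1 higher (Cpe), and 106 genes lower and 101 higher in all. With a 4-fold bound Chga and Gip were no longer called, which left 4 lower and 1 higher, and 88 and 65 genes in all. By the point estimate Chgb was also lower (-1.04), with 419 genes lower and 425 higher in all. Without the filter 716 genes were lower and 595 higher, and the calls of the 8 genes did not change. These rules by construction admit more or fewer genes. With deposited TPM and FPKM, judged by a log2(value + 1) difference of 1 where either library reached 5, Chgb was also lower, and with FPKM Tph1 was not called (its FPKM never reached 5) and 165 genes were higher in all; the cause of the last was not tested. No paired analysis was possible because each genotype has 1 library. Depth limits the values of Gcg, Cck and Tph1 in Spib_KO, where 0 or 1 read gives a bound and not a level.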
